A study of Mus musculus with 12 samples.

Results

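The nuclear receptor genes measured here are 34 ligand-regulated and orphan transcription factors of the liver, taken by symbol from a count table of 55401 genes. Each symbol was matched to its Ensembl identifier, and all 34 were found. They were read in 4 classes: 3 steroid receptors, 3 retinoid X receptors (RXR), 14 RXR partners and 14 orphan receptors. Of these, 32 passed the filter on low counts and were among the 13205 genes tested. The vitamin D receptor gene Vdr and the hepatocyte nuclear factor paralog Hnf4g did not pass it.

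The livers came from 15-week-old female mice on a C57BL/6J background, 6 iTgMir483 over-expressors and 6 littermate controls, with 1 poly(A) RNA-seq library per liver. The iTgMir483 mice carry 1 added copy of the microRNA gene Mir483 in the ubiquitously active Rosa26 locus, under a Tet-off switch that doxycycline keeps silent. Dams drank doxycycline through pregnancy, and its withdrawal let the transgene run from birth into adulthood. Every library of either group carries a label naming a cross of CMV-Cre, a deleter active in all tissues from soon after fertilization, with the miR line. The transgene is therefore on in the whole animal and not in hepatocytes alone. In the paper's description of this cross, the males were heterozygous for the transgene and the females homozygous for CMV-Cre. Every pup of such a mating inherits CMV-Cre, so littermates would differ by the transgene and not by Cre. The genotype of each control is not listed. Mir483 had 0 counts in every control library and 318 to 761 counts in the iTgMir483 libraries.

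Library totals ran from 12244123 to 30431286 counts (controls) and from 12415140 to 15846175 counts (iTgMir483). The tissue label was checked against hepatocyte markers, whose summed level was 115596 to 163764 CPM (counts scaled to a common library total) in controls and 54536 to 127322 CPM in iTgMir483 livers. The 2 groups overlapped, and 1 of the 5 markers found (Cps1) fell. Alb makes up most of this sum, with a mean of 111914 CPM in controls and 76071 CPM in iTgMir483 livers (log2 fold change -0.56, adjusted p 0.160). Kupffer cell markers stood at 223 to 334 CPM in controls and 339 to 997 CPM in iTgMir483 livers without overlap, with 5 of 6 genes higher. Recruited macrophage markers (18.3 to 41.3 against 59.3 to 84.1 CPM, 3 of 4 tested higher) and bile duct markers (21.0 to 46.1 against 60.8 to 89.4 CPM, 3 of 5 tested higher) did not overlap either. Both of those lists hold Spp1, which makes up most of each. The recruited macrophage list did not move together: Trem2, Itgax and Spp1 rose, Ccr2 had 1.08 CPM in controls and 0.713 CPM in iTgMir483 livers (log2 fold change -0.59, adjusted p 0.108), and Ly6c2 and Gpnmb were too low to test. In endothelial, stellate, lymphocyte and red cell lists 0 genes changed, and both neutrophil markers tested rose. In bulk RNA, fewer cells of a type and less RNA per cell cannot be told apart. The replicate 1 libraries of both groups stood apart from the rest: on the second principal component of all genes tested (16.0% of the variance) they lay at 46.4 (control) and 40.7 (iTgMir483), and the other 10 libraries between -16.7 and 2.89. Control replicate 1 was the highest or the lowest of its group for 18 of the 32 receptors tested, more than any other library.

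Nuclear receptors bind hormones, vitamins, bile acids, fatty acids, oxysterols or foreign compounds, and change transcription at the DNA elements they occupy. Steroid receptors wait on chaperones of the HSP90 machine and act as homodimers, whereas the thyroid, retinoid, PPAR, LXR, FXR, PXR and CAR receptors pair with an RXR. Orphan receptors have no settled physiological ligand, and several, such as HNF4A, hold the hepatocyte program in place. In liver the family governs bile acid, lipid and glucose metabolism and the clearance of drugs.

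Levels between genes were compared per length, as CPM per kb of annotated exon. In control livers Nr1i3, encoding the constitutive androstane receptor CAR, stood first at 220.6 CPM per kb, ahead of Hnf4a at 193 CPM per kb. The RXR alpha gene Rxra followed at 100.2 CPM per kb, then the bile acid receptor gene Nr1h4 (FXR) at 65.9 CPM per kb. The fatty acid receptor gene Ppara had 60.1 CPM per kb, the pregnane X receptor gene Nr1i2 52.1 CPM per kb, and the oxysterol receptor gene Nr1h3 (LXR alpha) 47.5 CPM per kb. The remaining members lay at 22.2 CPM per kb (Nr0b2) or lower, and Vdr was last. Nr1i3 led in 5 of 6 control livers and Hnf4a in control replicate 4, so this pair was not separated beyond the spread of the livers. The same held for Nr1h4, Ppara, Nr1i2 and Nr1h3, whose ranks from 4 to 7 changed places between control livers.

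In iTgMir483 livers Hnf4a was first in 6 of 6, at 149 CPM per kb, and Nr1i3 had 91.5 CPM per kb, with ranks from 2 to 6. Nr1i3 supplied 25.1% ± 2.43 (SD, n = 6) of the summed CPM per kb of the 34 genes in controls and 13.3% ± 3.02 (SD, n = 6) in iTgMir483 livers. Its range of 22.8% to 28.2% in controls did not overlap the 7.91% to 17.0% of iTgMir483 livers. The summed level of the 34 was 876 ± 82.7 CPM per kb (SD, n = 6) against 691 ± 87.6 CPM per kb (SD, n = 6), and without Nr1i3 it was 655 ± 48.2 against 599.7 ± 86.6 CPM per kb. The length used for each gene sets this order in part. With the longest coding transcript in place of the union of exons, Nr1i3 and Hnf4a held the same ranks in both groups.

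**Figure D1:**
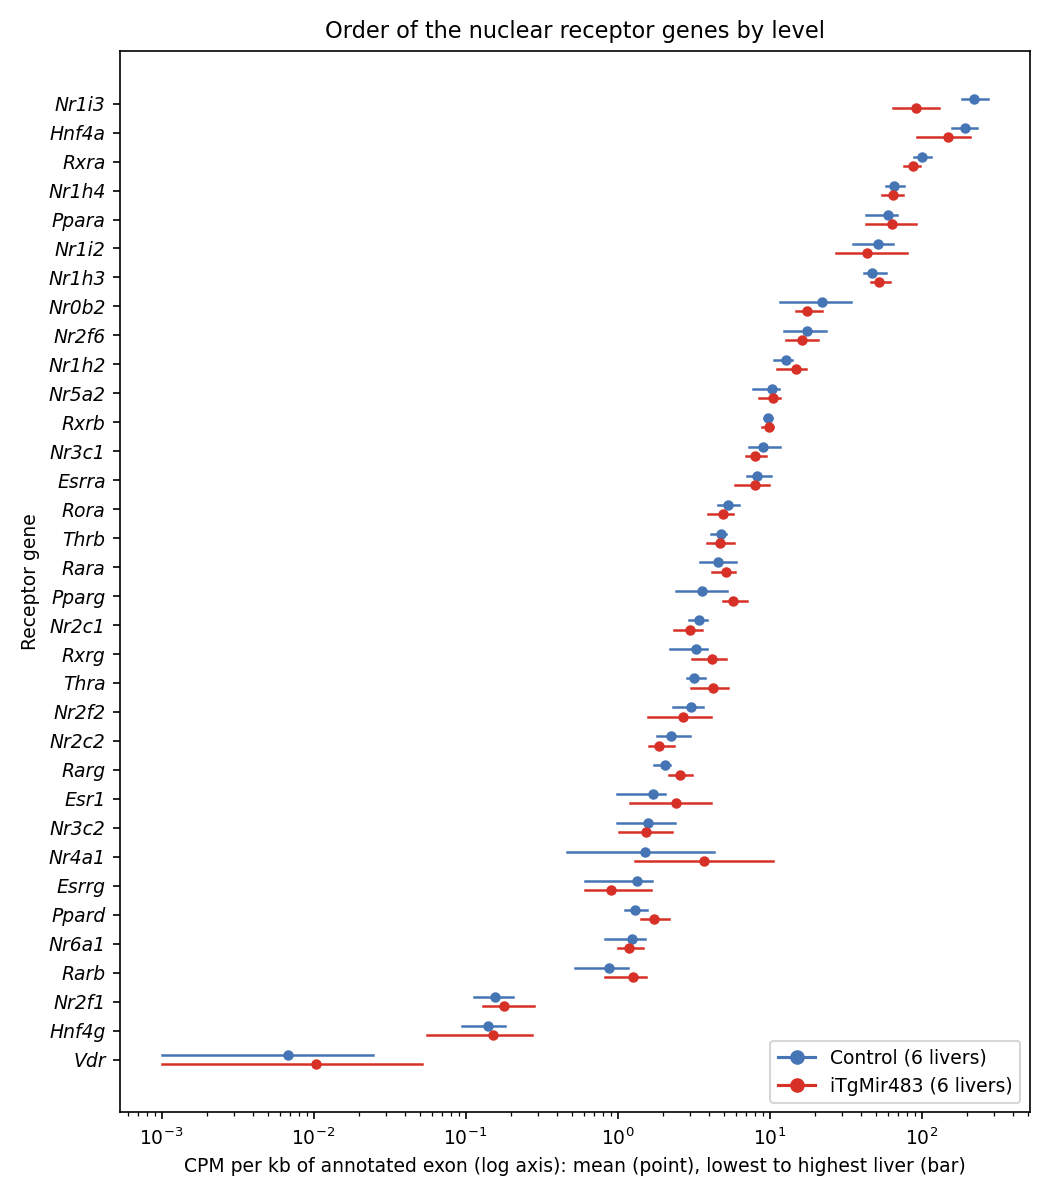
Mean level (points) and lowest to highest liver (bars) of the 34 receptor genes in CPM per kb of annotated exon on a log axis, for 6 Control and 6 iTgMir483 livers. Nr1i3 falls from 220.6 to 91.5 CPM per kb and drops below Hnf4a, and bars that reach 0 (Vdr) are cut at the left edge.

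The central comparison asked which receptor genes differ between iTgMir483 and control livers. A gene counted as changed where its adjusted p was under 0.05 and its fold change exceeded 1.5. Among the 32 receptors tested 2 changed (6.25%), against 11.1% of all genes tested: Nr1i3 fell and Pparg rose. Of all genes, 8.41% changed and were higher, and 2.73% changed and were lower. By the adjusted p alone 5 receptors passed (15.6%), against 18.6% of all genes: these were Nr1i3, Pparg, Ppard, Thra and Rarg, all of them RXR partners, with 4 higher (11.3% of all genes) and 1 lower (7.33% of all genes). Whether the classes differ in this was not tested. Without both replicate 1 libraries, Nr1i3 (log2 fold change -1.35, adjusted p 0.000613) and Pparg (0.61, 0.0151) were still called, Nr4a1 joined them (2.03, 0.0215), Ppard kept an adjusted p under 0.05 (0.0486), and Thra (0.0662) and Rarg (0.0657) did not.

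Most estimates were small. Besides Nr1i3 and Pparg, the largest in size were those of Nr4a1, Esrrg, Rarb and Esr1, described below. The median log2 fold change of the 32 was -0.02 and the median of its size was 0.21, beside 0.01 and 0.22 over all genes tested. Of the 32 estimates, 15 were above 0 and 17 below. For 18 receptors (56.2%) the 95% interval of the fold change lay wholly inside 1.5-fold either way, against 51.6% of all genes, so a change beyond 1.5-fold lay outside the interval of each. The groups did not overlap for 1 receptor (3.12%), Nr1i3, against 7.92% of all genes.

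**Figure D2:**
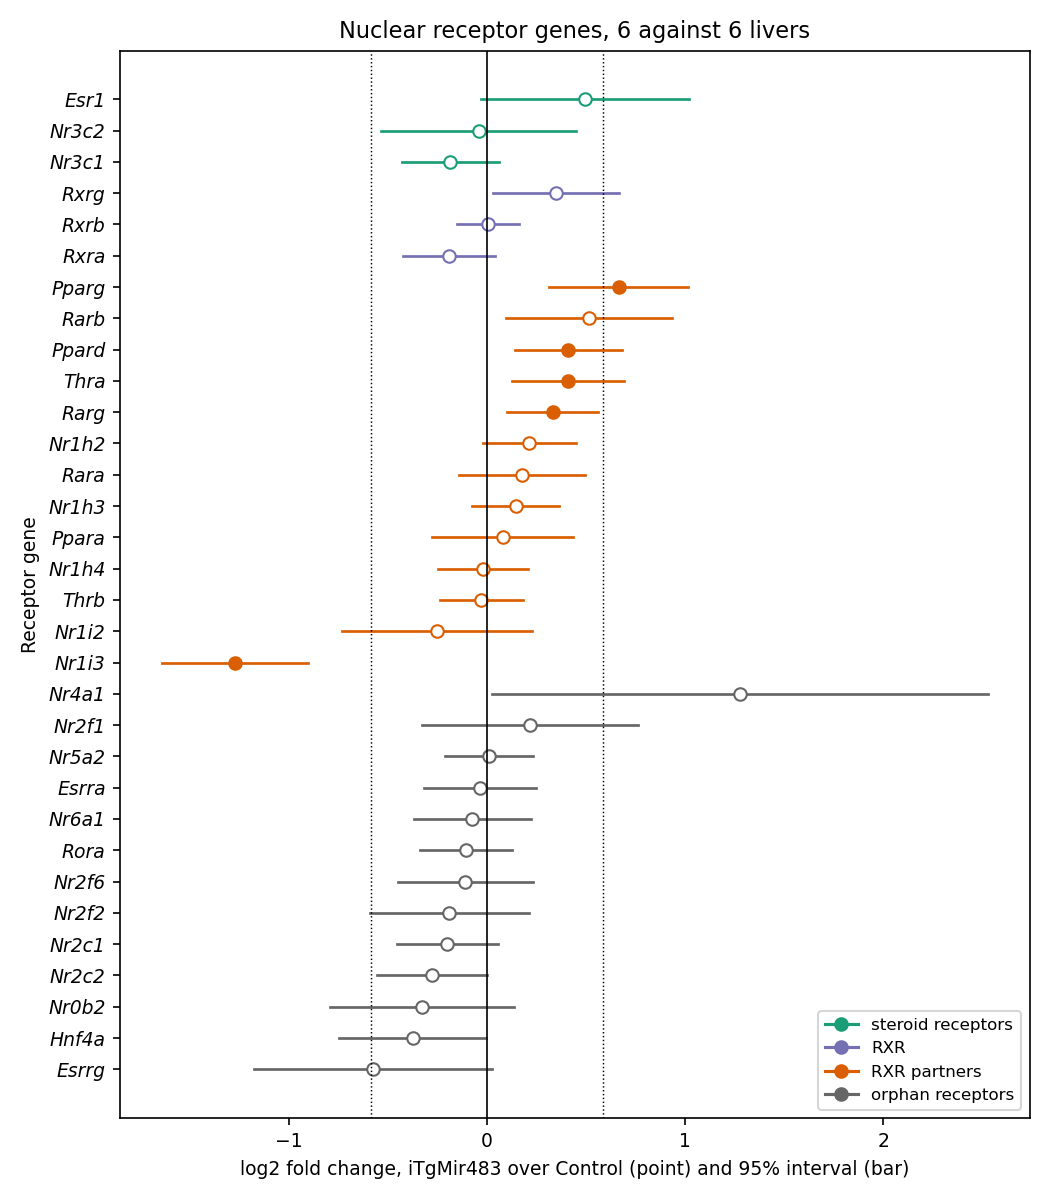
Log2 fold change (iTgMir483 over Control, 6 against 6 livers) with 95% interval for the 32 receptor genes tested, ordered by class. Filled points passed an adjusted p of 0.05, dotted lines mark 1.5-fold either way, and Nr1i3 at -1.27 and Pparg at 0.67 are the 2 that also passed the fold threshold.

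CAR senses drugs and other foreign compounds and drives their oxidation and export. Its gene Nr1i3 (ENSMUSG00000005677, chr1:171213970-171220701, GRCm38) had 811, 1216, 822, 963, 868 and 1164 CPM in control replicates 1 to 6. The iTgMir483 replicates 1 to 6 had 449.8, 330.3, 382, 285, 577 and 398 CPM. Every iTgMir483 liver lay below every control liver, and the highest of them, replicate 5, was still under the lowest control, replicate 1. The level fell 2.41-fold, from 974 ± 176 to 404 ± 102 CPM (SD, n = 6), with a log2 fold change of -1.27 (SE 0.173, 95% interval -1.64 to -0.90, adjusted p 0.000478, edgeR quasi-likelihood). The exact permutation p was 0.0022, two-sided, the smallest the design allows. Any gene without overlap between the groups has this value, so it adds nothing to the lack of overlap. The gene passed even when the null was set at 1.5-fold (adjusted p 0.0148), and its log2 fold change lay between -1.40 and -1.19 in the 19 alternatives that refitted it. The opposite-strand gene Tomm40l shares 3304 of the 4414 annotated exon bases of Nr1i3, and the strand setting of the counting is not stated. Tomm40l had 14.4 CPM in controls and 17.8 CPM in iTgMir483 livers (log2 fold change 0.30, adjusted p 0.323). How far the overlap enters the counts of either gene was not tested.

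Because the transgene delivers a microRNA, the 3′ untranslated regions (UTRs) of the receptors were searched for the letters that pair with its seed. A microRNA guides repression mainly by pairing of its bases 2 to 8, the seed, with a 3′ UTR. The mature sequences are those of RefSeq (GRCm38.p6, minus strand, chr7:142654932-142654952 for miR-483-3p and chr7:142654968-142654989 for miR-483-5p), with the seed in capitals.
mmu-miR-483-3p: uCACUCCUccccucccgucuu
mmu-miR-483-5p: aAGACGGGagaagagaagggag

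The seed of miR-483-3p pairs with AGGAGTG and that of miR-483-5p with CCCGTCT, and only the transcript's own strand was searched. In the longest annotated 3′ UTR (GENCODE M21, GRCm38), 3 of the 34 receptors hold AGGAGTG (8.82%): Nr1i3, Rora and Nr6a1. Of 12098 tested genes with a 3′ UTR, 12.6% hold it, with a median UTR of 1164 bases against 1433 bases in the receptors. The match to miR-483-5p is in 2 receptors (5.88%), Rarg and Vdr, and in 3.26% of the tested genes. The sites are shown with flanks because they are the letters any direct pairing would use, and capitals mark the match.
Nr1i3, miR-483-3p match, chr1:171219073-171219079, plus strand: ttcccgagggaAGGAGTGgaagactgagg
Rora, miR-483-3p match, chr9:69379995-69380001, plus strand: tccagaattgaAGGAGTGtctggtgctgt
Nr6a1, miR-483-3p match, chr2:38725478-38725484, minus strand: gaggagaaggtAGGAGTGtagctagcagc
Rarg, miR-483-5p match, chr15:102235448-102235454, minus strand: gtgagcccgagCCCGTCTgtacctctgct

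The 3 receptors with the miR-483-3p letters did not move alike. Nr1i3 fell, whereas the circadian and lipid regulator Rora had a log2 fold change of -0.10 (95% interval -0.34 to 0.13) and the germ cell nuclear factor gene Nr6a1 -0.07 (-0.37 to 0.22). In Nr1i3 the match is in 1 of 4 coding transcripts with an annotated 3′ UTR, at base 355 of a UTR of 1983 bases, and the shortest of the 4 UTRs has 126 bases. The counts are per gene and do not show which of these transcripts the liver uses. In Rora 1 of 2 such transcripts holds it and in Nr6a1 2 of 2. Rarg, with the miR-483-5p letters in 2 of 2 transcripts, was higher by the adjusted p alone. A match describes the letters of an annotated transcript, and pairing was not measured.

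**Figure D3:**
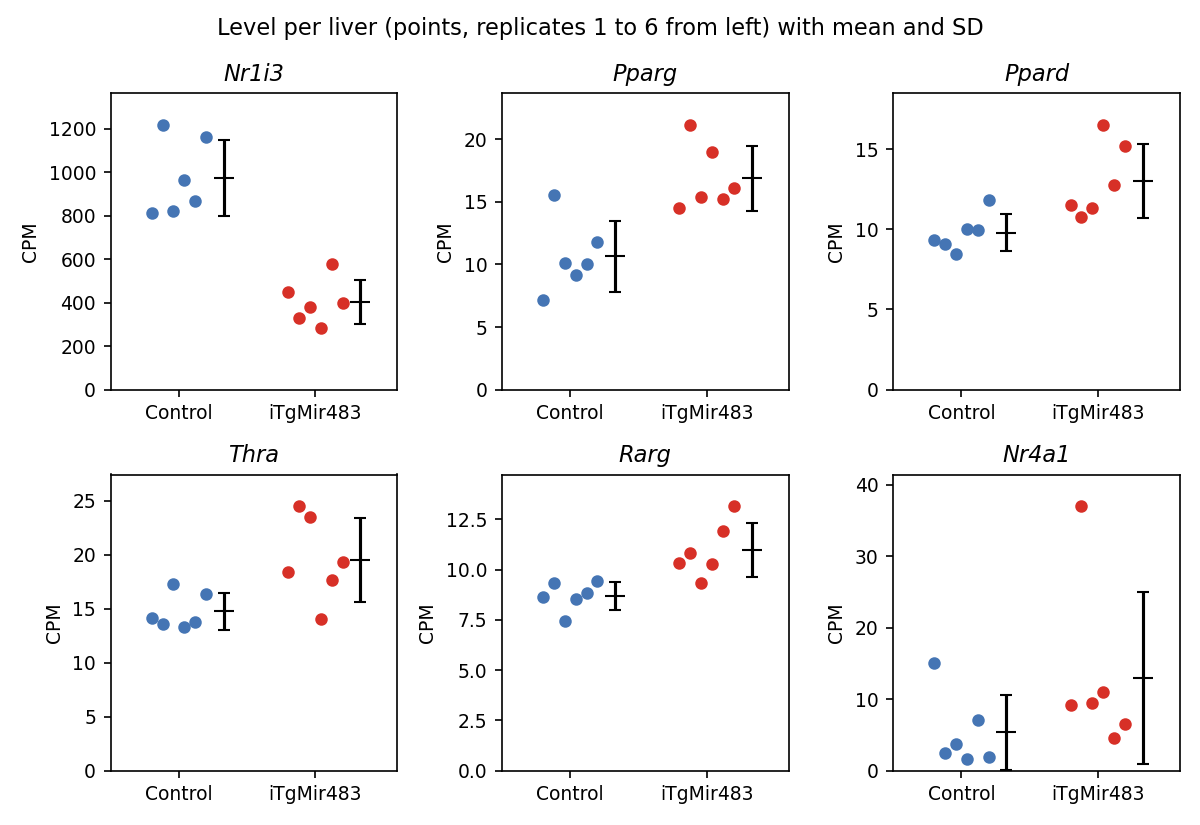
CPM in each liver (points, replicates 1 to 6 from left in each group) with mean and SD for Nr1i3, Pparg, Ppard, Thra, Rarg and Nr4a1. Nr1i3 is separated between the groups (285 to 577 against 811 to 1216 CPM), whereas the other 5 overlap and Nr4a1 has 1 iTgMir483 liver at 37.0 CPM.

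The PPARs sense fatty acids, with PPAR gamma best known from fat storage, PPAR alpha from hepatic fatty acid oxidation and PPAR delta from oxidation in many tissues. Pparg (ENSMUSG00000000440, chr6:115360951-115490399) had 7.15, 15.6, 10.1, 9.20, 10.05 and 11.8 CPM in control replicates 1 to 6 and 14.5, 21.1, 15.4, 19.0, 15.2 and 16.1 CPM in iTgMir483 replicates 1 to 6. Control replicate 2 reached into the iTgMir483 range, and the other 5 controls lay below it. The gene rose 1.59-fold, from 10.6 ± 2.85 to 16.9 ± 2.60 CPM (SD, n = 6), with a log2 fold change of 0.67 (SE 0.164, 95% interval 0.31 to 1.02, adjusted p 0.0127). Its adjusted p stayed under 0.05 in 19 of 19 alternatives (0.0022 to 0.0345), but without control replicate 1 the log2 fold change was 0.57, which is under the fold threshold. With the null set at 1.5-fold it did not pass (adjusted p 1.0). Adipocyte markers summed to at most 2.34 CPM in any library, with Plin1, Lep and Retn at or under the floor of 3 counts in both groups, and none was higher in iTgMir483 livers. The summed Kupffer and recruited macrophage markers were higher in the same livers, with Ccr2 as the exception given above, and their part in the Pparg difference was not tested.

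Ppard (ENSMUSG00000002250, chr17:28232700-28301474) had 9.35, 9.09, 8.44, 10.02, 9.98 and 11.8 CPM in controls and 11.5, 10.8, 11.3, 16.5, 12.8 and 15.2 CPM in iTgMir483 livers. Only control replicate 6 lay inside the iTgMir483 range. The log2 fold change was 0.41 (SE 0.127, 95% interval 0.14 to 0.68, adjusted p 0.0361), and the adjusted p was under 0.05 in 10 of 19 alternatives. Leaving out any 1 of control replicates 1 to 5 or iTgMir483 replicates 4 to 6 put it between 0.0550 and 0.0780. Ppara, by contrast with these values, had 164 to 267 CPM in controls and 166 to 350.5 CPM in iTgMir483 livers. Its log2 fold change of 0.08 had a 95% interval of -0.27 to 0.44, inside 1.5-fold either way.

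Thyroid hormone receptors set the rate of lipid and carbohydrate turnover, and the beta form is the main one of liver. Thra (ENSMUSG00000058756, chr11:98740638-98769006) had 14.1, 13.6, 17.3, 13.3, 13.8 and 16.4 CPM in controls and 18.4, 24.5, 23.5, 14.0, 17.6 and 19.3 CPM in iTgMir483 livers. The iTgMir483 replicate 4 fell among the controls and the other 5 lay above all of them. The log2 fold change was 0.41 (SE 0.132, 95% interval 0.13 to 0.69, adjusted p 0.0425), under 0.05 in 9 of 19 alternatives. Leaving out any 1 of control replicates 1, 2, 4, 5 and 6 or iTgMir483 replicates 2, 3 and 6 raised the adjusted p to between 0.0547 and 0.102. Thra shares 263 of its 4614 exon bases with the opposite-strand clock gene Nr1d1, which had a log2 fold change of 0.67 (adjusted p 0.251). The order of the pair by control level depended on the length used, with Thrb at 4.82 and Thra at 3.19 CPM per kb of annotated exon but 5.75 and 6.01 CPM per kb of the longest coding transcript. For Thrb the log2 fold change was -0.03 (95% interval -0.24 to 0.18).

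Retinoic acid receptors respond to retinoic acid, which cells make from retinol, and the liver stores retinol as esters in stellate cells. Rarg (ENSMUSG00000001288, chr15:102234938-102257517) had 8.66, 9.32, 7.46, 8.55, 8.84 and 9.42 CPM in controls and 10.3, 10.8, 9.36, 10.3, 11.9 and 13.2 CPM in iTgMir483 livers. The lowest iTgMir483 liver, replicate 3, was just under the highest control, replicate 6. Its log2 fold change was 0.33 (SE 0.107, 95% interval 0.10 to 0.56, adjusted p 0.0428), under 0.05 in 7 of 19 alternatives. The adjusted p was 0.0527 to 0.0940 without any 1 control or without iTgMir483 replicate 2, 5 or 6. Rarb ranged from 2.76 to 6.20 CPM in controls and from 4.37 to 8.13 CPM in iTgMir483 livers, with a log2 fold change of 0.52 (adjusted p 0.0799). Without iTgMir483 replicate 1 it passed (0.61, adjusted p 0.0338, range over the alternatives 0.0308 to 0.154). It shares 1793 of 5265 exon bases with the opposite-strand gene Top2b, which had 49.3 CPM in controls and 40.6 CPM in iTgMir483 livers (log2 fold change -0.28, adjusted p 0.0656), against 4.65 and 6.63 CPM of Rarb. How far Top2b reads enter the Rarb counts was not tested. Rara had a log2 fold change of 0.18 (95% interval -0.14 to 0.50). Stellate cell markers, with 0 of 6 changed, overlapped between the groups.

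The remaining RXR partners are the liver's sensors of bile acids, oxysterols and drugs, and none passed the test. FXR, which shuts down bile acid synthesis when bile acids accumulate, showed 134 to 177 CPM of Nr1h4 in controls and 127 to 174 CPM in iTgMir483 livers (log2 fold change -0.02, 95% interval -0.25 to 0.21). The LXR genes, whose products respond to oxysterols and promote cholesterol export and lipogenesis, had log2 fold changes of 0.15 for Nr1h3 (-0.07 to 0.36) and 0.22 for Nr1h2 (-0.02 to 0.45). All 3 intervals lay inside 1.5-fold. PXR shares many targets with CAR. Its gene Nr1i2 had 90.7 to 166 CPM in controls and 70.4 to 112 CPM in 5 iTgMir483 livers, while iTgMir483 replicate 4 had 206 CPM, above every control. The log2 fold change was -0.25 (95% interval -0.73 to 0.23, adjusted p 0.469). Without that liver it was -0.51, and it then passed by the adjusted p alone (0.0372, range over the alternatives 0.0372 to 0.673). Vdr, the vitamin D receptor gene, never exceeded 4 counts in a library, and a difference was not detectable at this depth.

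The RXRs are the obligate partners of these receptors. Rxra, by far the most abundant of the 3 per length, had 485 to 632 CPM in controls and 416 to 537 CPM in iTgMir483 livers, and its log2 fold change was -0.19 (95% interval -0.42 to 0.04). Rxrb was the least variable receptor in control livers, with a coefficient of variation of 4.73%, and had a log2 fold change of 0.01 (-0.15 to 0.16). Rxrg had 5.09 to 8.85 CPM in controls and 7.11 to 11.9 CPM in iTgMir483 livers. Its log2 fold change was 0.35 (0.03 to 0.67, adjusted p 0.115). No RXR passed the test, and for Rxra and Rxrb a 1.5-fold difference lay outside the interval.

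Among the 3 steroid receptors 0 passed the test. The glucocorticoid receptor gene Nr3c1, which mediates the hepatic response to fasting and stress hormones, had 56.4 to 90.2 CPM in controls and 54.0 to 72.9 CPM in iTgMir483 livers. Its log2 fold change was -0.18 (95% interval -0.43 to 0.06). The mineralocorticoid receptor gene Nr3c2 had a log2 fold change of -0.04 (-0.53 to 0.45), and both intervals lay inside 1.5-fold. The estrogen receptor alpha gene Esr1 had 13.6, 27.9, 26.6, 24.8, 21.2 and 26.6 CPM in controls and 16.6, 23.2, 36.2, 56.5, 32.1 and 33.9 CPM in iTgMir483 livers. In either group replicate 1 was the lowest liver, and iTgMir483 replicates 3 to 6 lay above all controls. The log2 fold change was 0.50 (95% interval -0.03 to 1.02, adjusted p 0.172), and the adjusted p stayed above 0.05 in 19 of 19 alternatives.

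The orphan class also had 0 changed members of 13 tested, with 10 estimates below 0 and 3 above. Of the 13205 genes tested, 6500 had an estimate below 0, and whether the class differs from them was not tested. HNF4A is the factor on which much of the hepatocyte program rests. Its gene Hnf4a had 768 to 1127 CPM in controls and 451 to 1008 CPM in iTgMir483 livers, with a log2 fold change of -0.37 (95% interval -0.74 to just under 0, adjusted p 0.148). Without iTgMir483 replicate 4, the highest of its group, it was -0.49 and passed by the adjusted p alone (0.0455, range over the alternatives 0.0455 to 0.265). The small heterodimer partner gene Nr0b2, whose product represses bile acid synthesis and lacks a DNA-binding domain, had 13.2 to 39.2 CPM in controls and 16.9 to 25.0 CPM in iTgMir483 livers (log2 fold change -0.33, 95% interval -0.79 to 0.14). LRH-1, which works against it on bile acid genes, had nearly equal levels of its gene Nr5a2 (log2 fold change 0.01, -0.21 to 0.24).

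Nr4a1 (ENSMUSG00000023034, chr15:101254269-101274795), an immediate early gene, had the largest estimate of the 32 and the widest interval. Controls had 15.1, 2.47, 3.76, 1.64, 7.10 and 1.92 CPM, and iTgMir483 livers had 9.17, 37.0, 9.42, 10.99, 4.57 and 6.50 CPM. Control replicate 1 was above 5 of the iTgMir483 livers, and iTgMir483 replicate 2 was far above its group. The log2 fold change was 1.28 (SE 0.586, 95% interval 0.03 to 2.53, adjusted p 0.142). Without control replicate 1 it was 1.95 and passed (adjusted p 0.0220). Across the alternatives it ran from 0.61 to 2.03, with adjusted p from 0.0215 to 0.425.

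The estrogen-related receptors drive mitochondrial genes. Esrra had a log2 fold change of -0.03 (95% interval -0.31 to 0.25) and the less abundant Esrrg -0.57 (-1.17 to 0.03, adjusted p 0.169). Esrrg had 3.76 to 10.4 CPM in controls, and 5 iTgMir483 livers had 3.79 to 6.33 CPM while replicate 5 had 10.3 CPM. Without iTgMir483 replicate 5 it passed (-0.85, adjusted p 0.0325, range over the alternatives 0.0325 to 0.291). The COUP transcription factor genes Nr2f2 (-0.19, interval -0.59 to 0.21) and Nr2f6 (-0.11, -0.45 to 0.23) and the testicular receptor genes Nr2c1 (-0.20, -0.45 to 0.05) and Nr2c2 (-0.28, -0.55 to 0.00) had small estimates. Nr2f1 was the lowest per length of those tested, at 0.155 CPM per kb in controls. It had 1.004, 0.69, 1.05, 0.581, 0.603 and 0.823 CPM in controls and 0.874, 1.43, 0.90, 0.659, 0.815 and 0.774 CPM in iTgMir483 livers, which overlapped (log2 fold change 0.22, interval -0.33 to 0.77). Hnf4g, at 0.140 CPM per kb in controls, had 2 to 14 counts per library and was not tested.

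Receptors need partners beyond the RXRs, and 42 other genes of the pathway were read the same way. Of the 34 that could be tested, 5 changed (14.7%, against 11.1% of all genes). All 5 were lower, and of all genes 2.73% changed and were lower. The median log2 fold change of the 34 was -0.07. Among 7 other nuclear receptors tested 1 changed. The median log2 fold change of these 7 was 0.19, and 2 of them had an interval inside 1.5-fold.

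Chaperones hold steroid receptors in a hormone-binding state. Of 6 such genes 3 changed, all lower, and 5 passed the adjusted p alone, with a median log2 fold change of -0.59 and 6 of 6 estimates below 0. Among all genes tested, 2.73% changed and were lower, and 7.33% were lower by the adjusted p alone. On the log2 scale, Hsp90aa1, the inducible HSP90, fell by 1.03 (SE 0.225, adjusted p 0.00663). The HSP70-HSP90 adaptor gene Stip1 fell by 0.73 (SE 0.157, adjusted p 0.00649) and the immunophilin gene Fkbp4 fell by 0.59 (SE 0.161, adjusted p 0.0211). Fkbp4 lay at the fold threshold and was under it, at -0.58 to -0.51, without any 1 of control replicates 1, 4 and 6 or iTgMir483 replicates 2, 4, 5 and 6. Control replicate 1 was the lowest control for Hsp90aa1 and Stip1, at 74.9 and 54.8 CPM. Coregulators, which carry the receptor signal to chromatin, mostly had tight intervals. Of the 21 tested, 18 had an interval inside 1.5-fold (85.7%, against 51.6% of all genes), and genes of like level were not compared. Only 1 changed (4.76%, against 11.1% of all genes), the deacetylase gene Sirt1. It fell by 0.69 (SE 0.119, adjusted p 0.00195) without overlap between the groups (9.14 to 12.2 against 5.96 to 8.37 CPM).

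Textbook target genes of the receptors were then read, to set the receptor levels beside the genes they are known to act on. Of 73 tested, 13 changed (17.8%, against 11.1% of all genes), 6 higher and 7 lower, and the median log2 fold change was -0.19. Without control replicate 1 the count was 24. These genes have many other regulators, and receptor activity was not measured.

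The CAR and PXR list held 3 changed genes of 10, 1 higher and 2 lower. Of all genes 8.41% changed and were higher, and 2.73% changed and were lower. Cyp3a11, the main drug-metabolizing cytochrome of the mouse liver, had 2998 to 4342 CPM in controls and 205 to 808 CPM in iTgMir483 livers, and fell 5.90-fold (log2 fold change -2.56, SE 0.282, adjusted p 0.000114). The uptake transporter gene Slco1a4 fell by 0.99 (SE 0.309, adjusted p 0.0384), with overlap, and its adjusted p was 0.0502 to 0.0802 without any 1 of control replicates 2, 4, 5 and 6 or iTgMir483 replicates 3, 4 and 5. The efflux pump gene Abcb1a rose by 1.18 (SE 0.171, adjusted p 0.000722), from 5.79 to 12.2 CPM in controls to 15.0 to 23.8 CPM in iTgMir483 livers. Cyp2b10, the gene by which CAR activity is usually read, had a log2 fold change of 0.38 with a 95% interval of -0.99 to 1.76 (adjusted p 0.718). The changed genes of this list went in both directions.

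The PPAR gamma list had 2 changed genes of 6, both higher, where 8.41% of all genes changed and were higher. Of the 6 estimates 4 were above 0 and 2 below, the lowest at -0.92, and 0 had an interval inside 1.5-fold. Lpl, the lipoprotein lipase gene, had 10.7 to 15.8 CPM in controls and 16.5 to 69.6 CPM in iTgMir483 livers, and rose by 1.49 (SE 0.316, adjusted p 0.00587). The fatty acid binding protein gene Fabp4 rose by 0.95 (SE 0.221, adjusted p 0.00918). Both are also expressed by macrophages, whose summed markers were higher in these livers, and their part in this was not tested.

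Of 14 PPAR alpha targets 2 changed, both lower, and 11 estimates were below 0. Of all genes 2.73% changed and were lower, and 6500 of the 13205 tested had an estimate below 0. Whether the list differs from them was not tested. The fatty acid hydroxylase gene Cyp4a14 had 10199 to 11885 CPM in 5 controls, 2103 CPM in control replicate 1, and 123 to 2559 CPM in iTgMir483 livers, and it fell by 2.54 (SE 0.59, adjusted p 0.00926). Ppara itself did not pass the test.

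**Figure D4:**
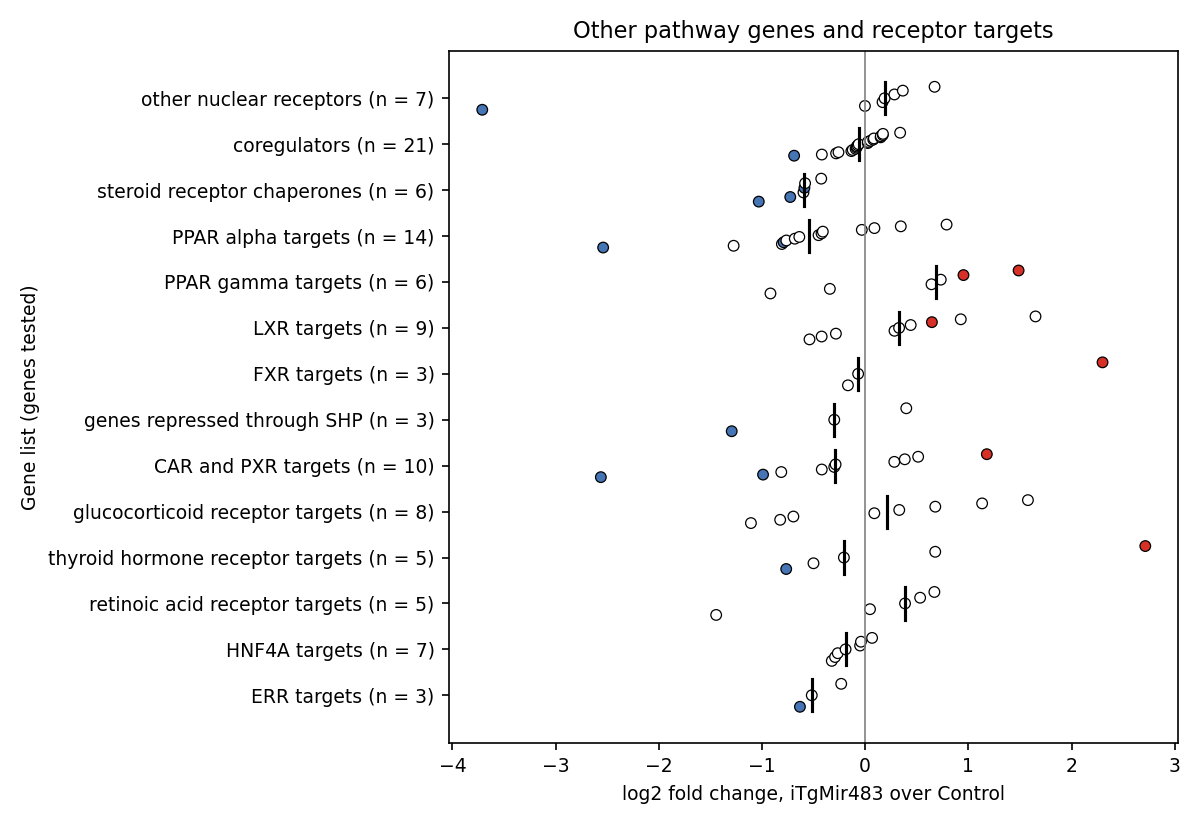
Log2 fold change (iTgMir483 over Control) of the other pathway genes and receptor targets tested, 1 line per list, with the list's median as a bar. Red points changed and were higher, blue points changed and were lower, open points did not change, and Cyp3a11 at -2.56 and Thrsp at 2.71 are among the points farthest from 0.

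Other target lists had 0 to 2 changed genes, where 11.1% of all genes changed. Of the genes tested, 1 of 3 changed for FXR, 1 of 3 for repression through SHP and 1 of 9 for LXR. The thyroid hormone list had 2 of 5 changed and the estrogen-related receptor list 1 of 3. In the FXR list 2 estimates were below 0, and the list's median log2 fold change was -0.07. The bile acid exporter subunit gene Slc51b, an FXR target, rose by 2.30 (SE 0.321, adjusted p 0.000582) from 0.349 to 1.14 CPM in controls to 1.53 to 3.997 CPM in iTgMir483 livers, without overlap. Cyp8b1, the sterol hydroxylase gene that is repressed through SHP, fell by 1.29 (SE 0.347, adjusted p 0.019). The cholesterol exporter gene Abcg1, of the LXR list, rose by 0.65 (SE 0.16, adjusted p 0.013), and without iTgMir483 replicate 4 its log2 fold change of 0.48 was under the fold threshold. Of the thyroid hormone list, the lipogenic gene Thrsp rose by 2.71 (SE 0.608, adjusted p 0.00773), with 1 iTgMir483 liver at 933 CPM and the others at 38.1 to 261 CPM, and the transcription factor gene Klf9 fell by 0.76 (SE 0.159, adjusted p 0.00523). Cycs, the cytochrome c gene of the estrogen-related receptor list, fell by 0.63 (SE 0.161, adjusted p 0.0147) and was under the fold threshold without control replicate 6 (-0.56) or iTgMir483 replicate 4 (-0.54). Among glucocorticoid receptor targets 0 of 8 changed, but only 1 had an interval inside 1.5-fold, and the log2 fold changes ran from -1.11 to 1.58. Among retinoic acid targets 0 of 5 changed, again with only 1 such interval and with log2 fold changes from -1.44 to 0.67. Most genes of these lists were thus not resolved at 1.5-fold. Among HNF4A targets 0 of 7 changed, of which 5 had an interval inside 1.5-fold.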

How the data were processed

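Liver RNA of 12 mice was sequenced as stranded poly(A) libraries, and the authors deposited raw read counts per gene, made with STAR on the GRCm38 build. Which strand was counted is not stated, so counts of overlapping genes on opposite strands cannot be told apart. Small RNAs were not analysed here. The table had 0 columns of no sample. Groups came from the sample titles.

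Symbols, exons and 3′ UTRs came from GENCODE M21 (GRCm38). Genes were kept with filterByExpr, scaled by TMM and compared with edgeR's quasi-likelihood test (R 4.3.3, limma 3.58.1, edgeR 4.0.16) with no covariate, with p-values adjusted by Benjamini-Hochberg over the 13205 genes tested. The fit was tested on simulated data. Standard errors were derived from the log2 fold change and its F statistic. CPM use TMM-scaled library sizes. Fold changes use the filtered counts of all 12 libraries. Exact permutation tests used log2 CPM over 924 assignments of mice. A floor of 3 counts covers counting error only.

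All members are reported by class. Values in every library are given for members that changed, passed the adjusted p alone or had the highest or lowest level per length. For Esr1 and Nr4a1 these values, and Cyp2b10 among the targets, were chosen after they were seen. From the other lists, changed genes are named, at most 4 per list. A few changed genes were counted in their lists but are not reported here by name. The members and lists were chosen with earlier results of these data known, and support nothing beyond their own values.

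The replicate numbers did not pair the livers: the deviations of same-numbered libraries correlated at 0.0339 to 0.440, and under 0.1 in 4 of 6, with the highest value for the replicate 1 libraries. The study names the same test, and its filter, scaling and covariates are not given in the sources used here. Libraries of a group differed far beyond sampling noise (smallest chi-square per gene 15.7), so each counted once. Whether the libraries came from separate litters is not stated. Other count filters, RLE scaling, limma-voom, DESeq2 1.42.0, other fold thresholds, the replicate block and leaving out libraries were tried as alternatives. The length of the longest coding transcript was added as an alternative after seeing the data.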

Additional observations from a re-analysis of the deposited data

Results flagged for a closer look

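Of 67 groups of 6 livers examined over the receptor genes, 6 held a liver far from the others of its group (the gap to its neighbour divided by the group's range passed Dixon's 95% critical value), where chance alone gives about 1 in 20, or 3.35 groups. In iTgMir483 replicate 4, Nr1i2 had 206 CPM and its group otherwise spanned 70.4 to 112 CPM (ratio 0.694), and Vdr had 4 counts against at most 1 (ratio 0.795). In iTgMir483 replicate 2, Nr4a1 had 37.0 CPM against 4.57 to 10.99 CPM (ratio 0.802), and Nr2f1 had 1.43 CPM against 0.659 to 0.90 CPM (ratio 0.687). Among controls, Nr1h2 was low in replicate 5, at 35.7 CPM against 43.5 to 47.2 CPM (ratio 0.680), and Nr5a2 was low in replicate 3, at 46.2 CPM against 60.3 to 67.8 CPM (ratio 0.651). Vdr was not tested, and none of the other 5 genes was called changed in the main comparison.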

How the results depend on the processing

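Nr1i3 was called changed in 21 of 21 alternatives, and no receptor reversed its direction while called. With the null set at 1.5-fold, the test left 1 receptor (0 higher), 226 of all genes, 1 other pathway gene and 3 targets, whereas the adjusted p alone gave 5 receptors (4 higher), 2457 of all genes and 8 other pathway genes. Requiring at least 10 counts in every sample left 3 other pathway genes, and 1192 of 11714 genes (10.2%). Leaving out 1 library at a time gave 2 to 3 changed receptors (1 to 2 higher, 1 to 2 lower), 1190 to 1653 of all genes, 4 to 7 other pathway genes and 12 to 24 targets, with 24 reached without control replicate 1. Without both replicate 1 libraries, 2 receptors were higher (Pparg and Nr4a1) and 23 targets changed. The replicate block also gave 23 targets but the same 2 receptors and 1530 of all genes, and same-numbered livers did not all pair. RLE size factors moved the median log2 fold change of all genes from 0.01 to -0.01. With a looser seed match, which also admits the letters GGAGTGA, 5 receptors held a miR-483-3p match (14.7%, against 17.6% of tested genes). Those added were Hnf4a, with 2 such matches, and Nr2f2, with 1. Depth limits Vdr, Hnf4g and Nr2f1. The p-values set the group difference against the spread between these livers, taken as independent.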
